A study of Mus musculus with 12 samples.

Results

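The comparison set adipocytes against stromo-vascular cells, both from subcutaneous fat. It used the 3 arrays labelled as subcutaneous isolated adipocytes and the 3 labelled as subcutaneous stromo-vascular fraction, which are 6 of the 12 arrays of the study. All 6 samples came from male C57BL/6 mice, an inbred laboratory strain, of 42 to 49 days of age, with the fat of 10 mice pooled and no drug, diet or genetic treatment named in the labels. Collagenase (1 mg/ml, 45 min) freed the cells, after which floating adipocytes were collected. The pelleted stromo-vascular cells were treated to lyse erythrocytes and plated at 60000 cells per square centimetre in medium with 10% serum. RNA of the stromo-vascular cells was taken after 16 h of culture, whereas the adipocytes were not plated, so cell fraction, erythrocyte lysis and culture cannot be told apart in any difference given here. The remaining 6 arrays hold the same 2 fractions of intraabdominal fat.

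White fat is built from adipocytes, which hold a large lipid droplet, and from a stromo-vascular compartment of preadipocytes, fibroblasts, vessel cells and leukocytes. Adipocytes make fatty acids and esterify them to triglyceride, release them again by lipolysis under hormonal control, and secrete adipokines such as adiponectin, resistin and leptin. Preadipocytes carry receptors for platelet-derived growth factor and secrete collagens and other matrix, and they turn into adipocytes under the nuclear receptor PPAR gamma and the C/EBP transcription factors. TGF beta, Wnt and inflammatory signals are known to hold that step back.

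The arrays measured 12422 probe sets apart from controls, of which 8695 passed a filter on low signal and were tested, and these represented 6436 genes. Median signal lay between 476 and 558 in the adipocyte arrays and between 507 and 533 in the stromo-vascular arrays. Arrays of the same fraction correlated with Pearson's r of 0.924 to 0.941 among adipocytes and of 0.965 to 0.976 among stromo-vascular cells, against 0.655 to 0.685 between the fractions, over the probe sets of an array (a description, since probe sets depend on each other). The median SD of log2 signal was 0.303 in adipocytes and 0.177 in stromo-vascular cells. The ratio of 3' to 5' signal of the actin control, a sign of RNA length, was 2.35 to 3.10 in the adipocyte arrays and 1.20 to 1.24 in the stromo-vascular arrays, and that of the Gapdh control was 1.89 to 2.21 against 1.12 to 1.21. RNA length and cell fraction thus cannot be told apart either, and this holds for each gene below. The labels do not say that the 3 replicates of a fraction are separate pools. The p-values then reflect only how much these samples vary, which may be technical.

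The fractions differed over most of what the arrays measured. Of 8695 probe sets, 4595 were called (52.8%), 2041 of them higher in adipocytes (23.5%) and 2554 lower (29.4%). Called means an adjusted p under 0.05 by limma with Benjamini-Hochberg adjustment over all probe sets tested. With 1 probe set per gene, 3553 of 6436 genes were called (55.2%), of which 1576 were higher in adipocytes (24.5% of those tested) and 1977 were lower (30.7%), with a median log2 difference of -0.04 over all genes. The differences were also large: 963 genes were called at least 2-fold higher in adipocytes (15%) and 1219 at least 2-fold lower (18.9%), and at 10-fold or more the counts were 118 (1.83%) and 110 (1.71%). The 3 arrays of 1 fraction lay wholly above the 3 of the other for 3999 genes (62.1%). The genes of largest difference named below were chosen among these, so their lack of overlap was set by the rule. Centring the arrays on ribosomal protein genes moved the median over all probe sets from -0.04 to 0.13, and the share of calls that were higher in adipocytes from 44.4% to 54.2%, so differences under about that shift have no settled sign. All folds and differences are on the scale of log2(signal + 40.2), which understates the change of dim genes. In bulk samples such as these, fewer cells of a type and less RNA per cell cannot be told apart.

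**Figure D1:**
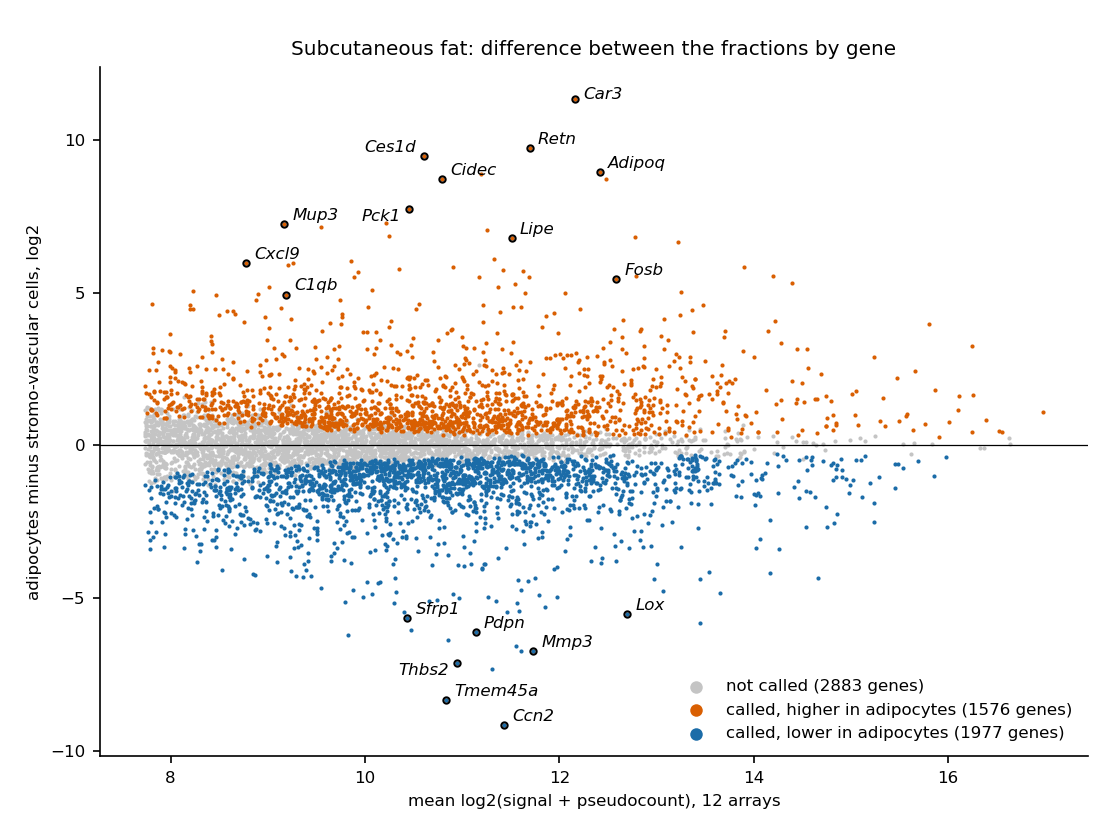
Difference between the fractions (log2, adipocytes minus stromo-vascular cells) against the mean log2(signal + pseudocount) over 12 arrays, 1 point per gene, with called genes in colour and some named genes circled. Differences reached 11.35 for Car3 and -9.14 for Ccn2, with called genes on both sides over the whole range of signal.

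The largest difference in favour of adipocytes was that of Car3, which encodes carbonic anhydrase III, a soluble enzyme abundant in adipocytes and muscle. Its signal was 223795, 263966 and 202534 in the adipocyte arrays and 40.4, 39.4 and 64.1 in the stromo-vascular arrays. The groups were separated by a 2615-fold difference (log2 11.35, SE 0.18, adjusted p = 3.7e-15, limma, n = 3 and 3). The stromo-vascular values lay near the pseudocount of 40.2, so the size of this fold depends on it. Retn, the gene of resistin, followed with 79546, 93009 and 106616 against 59.3, 62.9 and 82.1, a log2 difference of 9.74. Ces1d, a carboxylesterase of triglyceride breakdown, differed by 9.48 and Nnat, a small membrane protein, by 8.89. Amy1, the amylase gene, read 21779, 15589 and 13983 in adipocytes and 27, 150.2 and 201 in stromo-vascular cells (log2 6.85, adjusted p = 1.64e-09, limma). These genes were chosen among those without overlap, so every adipocyte array was above every stromo-vascular array by the rule.

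On the stromo-vascular side Ccn2, the connective tissue growth factor gene, led. It read 21, 189 and 52.4 in the adipocyte arrays and 63978, 63807 and 56939 in the stromo-vascular arrays, a 564-fold difference (log2 -9.14, SE 0.44, adjusted p = 3.46e-10, limma). The adipocyte arrays were spread over a wide range at low signal, and none came near the stromo-vascular arrays. Tmem45a, a transmembrane protein gene, gave 58.4, 50.6 and 31.5 against 27687, 29472 and 26273 (log2 -8.33), and Aebp1, which encodes a collagen-binding carboxypeptidase-like protein, gave 154, 176 and 632 against 48669, 43738 and 51909 (log2 -7.3). Cyp1b1, a cytochrome P450 of oestrogen and aryl hydrocarbon metabolism, differed by -6.71, Phldb2, a protein of microtubule anchoring at adhesions, by -6.38, and the carboxypeptidase-like gene Cpxm1 by -6.2. Podoplanin (Pdpn), a membrane mucin of stromal and lymphatic cells, differed by -6.12 and the metalloprotease Adam19 by -6.03, all lower in adipocytes.

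The labels of the fractions were checked against defining markers. All 6 measured adipocyte markers were higher in adipocytes, with log2 differences of 8.95 for Adipoq, 9.74 for Retn, 8.72 for Cidec, 3.57 for Lep, 2.66 for Fabp4 and 2.58 for Pparg. Plin1 and Cfd were not analysed here, and no value is given for the preadipocyte marker Ly6a. Of the preadipocyte and fibroblast markers Pdgfra, Thy1 and Col1a1 were lower in adipocytes, by -4.97, -5.44 and -2.24, whereas Cd34 was higher by 1.24 (adjusted p = 0.00107, limma) and Dlk1 was not called (-0.24, adjusted p = 0.283, limma). Of the endothelial, B lymphocyte and erythroid lists 15 of 18, 5 of 9 and 3 of 7 tested genes were higher with the adipocytes, although those cells belong to the stromo-vascular compartment of the tissue.

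The lipid droplet and lipolysis genes were uniformly higher in adipocytes. All 12 tested of the 24 listed were called higher, with a median log2 difference of 3.96, against 24.5% called higher and a median of -0.04 over all genes. Cidec, a protein that fuses lipid droplets, read 34059, 26068 and 35288 in adipocytes and 24.8, 8.64 and 93 in stromo-vascular cells. Cidea, its relative in brown fat, read 20451, 14668 and 17799 against 41.2, 222 and 49.3. Both were separated without overlap, by 421-fold and 141-fold. Hormone-sensitive lipase (Lipe) gave 31610.1, 30543 and 26045 against 129, 242 and 354 (log2 6.78, SE 0.26, adjusted p = 2.75e-11, limma). Adipose triglyceride lipase (Pnpla2), which acts before it in lipolysis, differed by 5.54 and monoglyceride lipase (Mgll), which acts after it, by 4.47. The droplet coat gene Plin4 read 30463, 40656 and 41991 against 318, 279 and 159.7, a log2 difference of 7.04.

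The enzymes that build fatty acids and triglyceride were higher in adipocytes as well. Of 14 tested genes of fatty acid synthesis, 11 were called higher and 1 lower, with a median of 3.26. Fatty acid synthase (Fasn) read 109009, 139927 and 113170.0 in adipocytes against 2026, 2103 and 1999, a 57.6-fold difference. Thrsp, the Spot 14 regulator of lipogenesis, read 130737, 122465 and 120176 against 197, 290.1 and 284, or 423-fold. In both cases the replicates of a fraction lay close together and the fractions far apart. Stearoyl-CoA desaturase 1 (Scd1), which introduces a double bond, differed by 3.98. The suppliers of the pathway also differed: the mitochondrial citrate carrier Slc25a1 by 3.54, malic enzyme (Me1), a source of NADPH, by 3.36, and transketolase (Tkt) of the pentose phosphate pathway by 3.17. Of 10 tested genes of glycerol supply and triglyceride assembly, 8 were called higher and 0 lower, with a median of 3.42. Phosphoenolpyruvate carboxykinase (Pck1), which makes glycerol phosphate from non-glucose carbon in fat, read 20064, 24924 and 30966 against 26.5, 45.8 and 232 (log2 7.75, SE 0.46). Glycerol-3-phosphate dehydrogenase (Gpd1) differed by 6.83, pyruvate carboxylase (Pcx) by 5.5, diacylglycerol acyltransferase 1 (Dgat1) by 3.69 and lipin 1 (Lpin1) by 3.37.

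**Figure D2:**
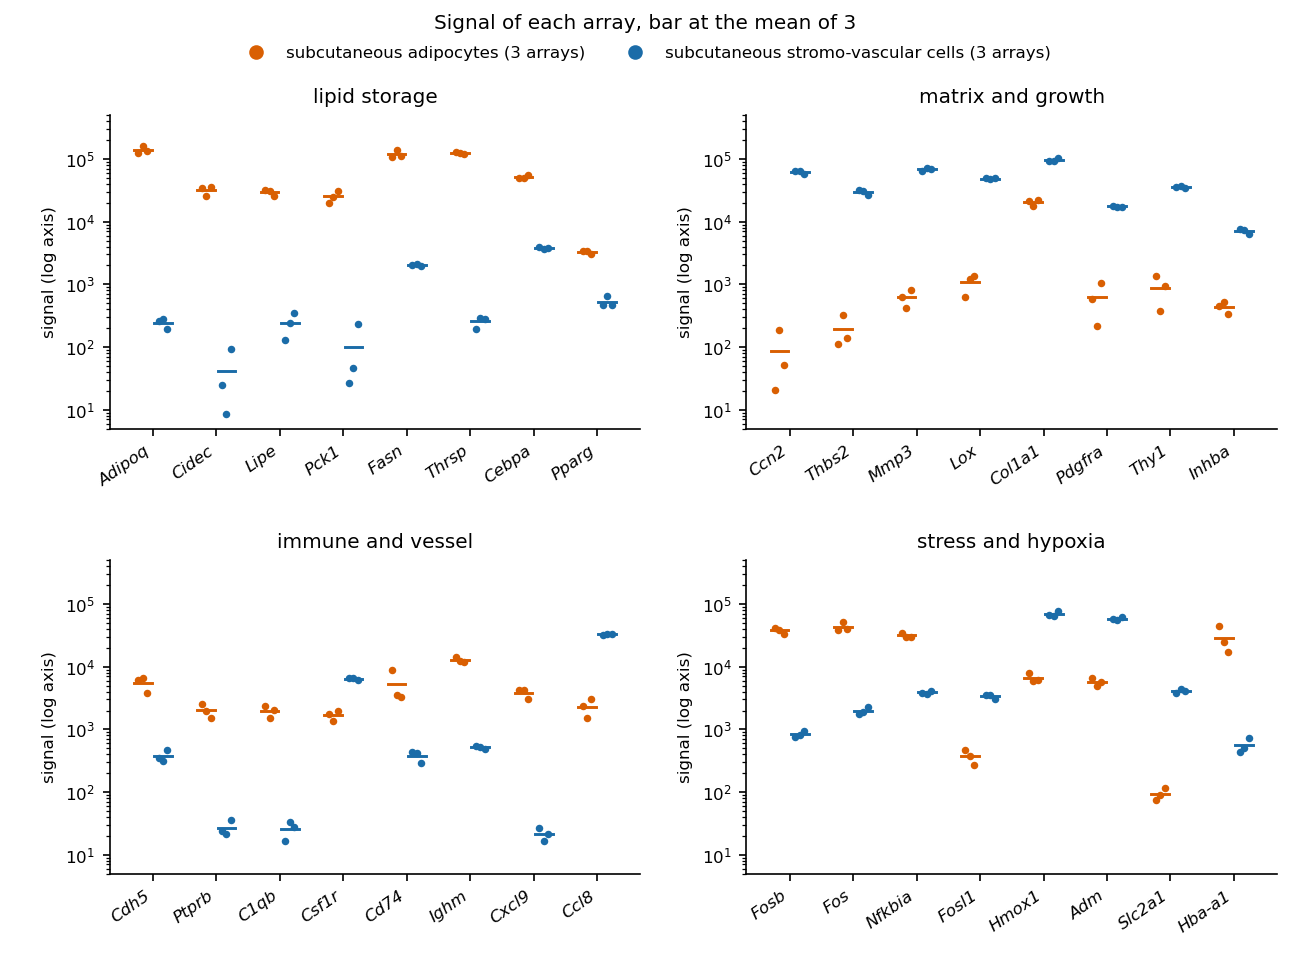
Signal (log axis) of 32 genes in each of the 6 subcutaneous arrays, in 4 panels, with points for single arrays and a bar at the mean of 3. In every gene shown the 3 adipocyte arrays and the 3 stromo-vascular arrays do not overlap, as in 62.1% of all genes tested, and part of the genes were chosen for it. The widest scatter lies at low signal, as for Ccn2 in adipocytes and Pck1 in stromo-vascular cells.

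Among secreted factors of the fat cell, 8 of 11 tested adipokine genes were higher in adipocytes and 1 lower (median 2.19). Adiponectin (Adipoq), a hormone made by mature adipocytes, read 124175, 162911 and 134158 in adipocytes and 265, 278 and 192 in stromo-vascular cells (log2 8.95, SE 0.14, adjusted p = 3.7e-15, limma). Leptin (Lep), the satiety hormone, read 34469.6, 22494 and 18348 against 1506, 2963 and 1802, an 11.9-fold difference. Adipocyte replicate 1 gave the highest leptin signal, and the lowest adipocyte array was still well above the stromo-vascular arrays. Retinol-binding protein (Rbp4) differed by 2.73, the lipase inhibitor Angptl4 by 2.94, lipoprotein lipase (Lpl) by 2.19, haptoglobin (Hp) by 1.66 and angiotensinogen (Agt) by 1.48.

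Of 17 tested regulators of fat cell formation, 9 were higher in adipocytes and 3 lower, with a median of 1.0. C/EBP alpha (Cebpa), which sustains the mature adipocyte programme, read 50193, 49729.6 and 55631 against 4002, 3625 and 3745, a 13.5-fold difference. PPAR gamma (Pparg) read 3456, 3452 and 3093 against 464, 659.7 and 468, or 5.98-fold. Both transcription factors gave signal above the pseudocount in the stromo-vascular arrays, and the fractions did not overlap. The liver X receptor alpha (Nr1h3) differed by 3.3 and the sterol regulator Srebf1, which drives lipogenic genes, by 2.53. Of 14 tested genes of a list drawn up as holding adipogenesis back, 4 were higher and 4 lower in adipocytes (28.6% each), near the shares over all genes. Runx1, a factor of mesenchymal and blood cells, read 222, 299 and 149.6 in adipocytes and 4233, 3204 and 3005 in stromo-vascular cells (log2 -3.76). Beta-catenin (Ctnnb1) differed by -1.47. Egr2, a zinc finger factor, was higher in adipocytes by 2.03. It counts among the 4 higher genes of this list, although an inhibitory role is not established for it.

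Fatty acid uptake genes were mixed. Of 15 tested, 9 were higher in adipocytes and 2 lower (median 1.96). The fatty acid translocase Cd36 read 6267, 4727 and 5658 against 36.3, 40 and 57.2, a 65.9-fold difference. Diazepam-binding inhibitor (Dbi), the acyl-CoA carrier, differed by 5.31, the transporter Slc27a1 by 4.47 and the adipocyte fatty acid-binding protein Fabp4 by 2.66. All 5 tested caveolar genes were higher in adipocytes (median 2.88), among them caveolin 1 (Cav1) by 3.09 and the coat proteins Cavin1 and Cavin2 by 2.88 and 2.98. Caveolae are the membrane pits in which adipocytes are rich. Of 13 insulin signalling genes 6 were higher and 3 lower (median 0.4). The insulin-regulated glucose transporter Slc2a4 (GLUT4) read 5995, 7591 and 6852 in adipocytes and 86.5, 105 and 402 in stromo-vascular cells, or 33.9-fold. The general transporter Slc2a1 (GLUT1) ran the other way, with 73.9, 91.3 and 115 against 3804, 4467 and 4063 (31.2-fold lower in adipocytes). Akt2, the kinase of insulin action, differed by 2.91 and the receptor substrate Irs2 by 2.26, while the adaptor Shc1 was lower in adipocytes (log2 -1.47).

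Mitochondrial genes formed the broadest group on the adipocyte side. Of 17 tested genes of fatty acid oxidation, 15 were higher in adipocytes and 0 lower (median 2.27). Of 22 genes of the tricarboxylic acid cycle and pyruvate entry, 19 were higher and 0 lower (median 1.8). Of 62 genes of the respiratory chain and ATP synthase, 52 were higher and 1 lower (median 1.57, range -1.3 to 4.03). These shares stand against 24.5% higher and 30.7% lower over all genes. Medium-chain acyl-CoA dehydrogenase (Acadm) read 46769, 33822 and 42986 in adipocytes and 2235, 2009 and 1983 in stromo-vascular cells, and the thiolase Acaa2 differed by 4.07. Cytochrome c1 (Cyc1) read 61414, 57373 and 65279 against 11829.7, 12736 and 11907, a 5.03-fold difference, and the cytochrome oxidase subunit Cox6a1 118931, 119961 and 127288 against 23433, 22635 and 21452, or 5.42-fold. Succinate dehydrogenase subunit B (Sdhb) differed by 2.18 and citrate synthase (Cs) by 1.95. Pdk4, the kinase that closes pyruvate entry, was higher as well, by 4.52.

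Breakdown of branched-chain amino acids followed the same direction, with 14 of 15 tested genes higher in adipocytes and 1 lower (median 2.14). Both subunits of the branched-chain keto acid dehydrogenase were among them. Bckdha read 3987, 3441 and 3854 in adipocytes and 135, 159 and 218 in stromo-vascular cells, and Bckdhb differed by 3.46. The aminotransferase Bcat2 differed by 3.2 and propionyl-CoA carboxylase (Pccb) by 3.7. All 5 tested genes of the brown fat list were higher in adipocytes (median 3.58). Uncoupling protein 1 (Ucp1), which turns respiration to heat, read 1518, 1271 and 1189 in adipocytes and 144, 162 and 93.1 in stromo-vascular cells on the probe set that stood for it (log2 3.0, adjusted p = 7.99e-06, limma). The muscle-type oxidase subunits Cox8b and Cox7a1, also known from brown fat, read 14495, 14601 and 27488 against 1101, 1207 and 899 and 1179.5, 1555 and 3388 against 208, 154 and 40.8. Adipocyte replicate 3 gave the highest value of both subunits.

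**Figure D3:**
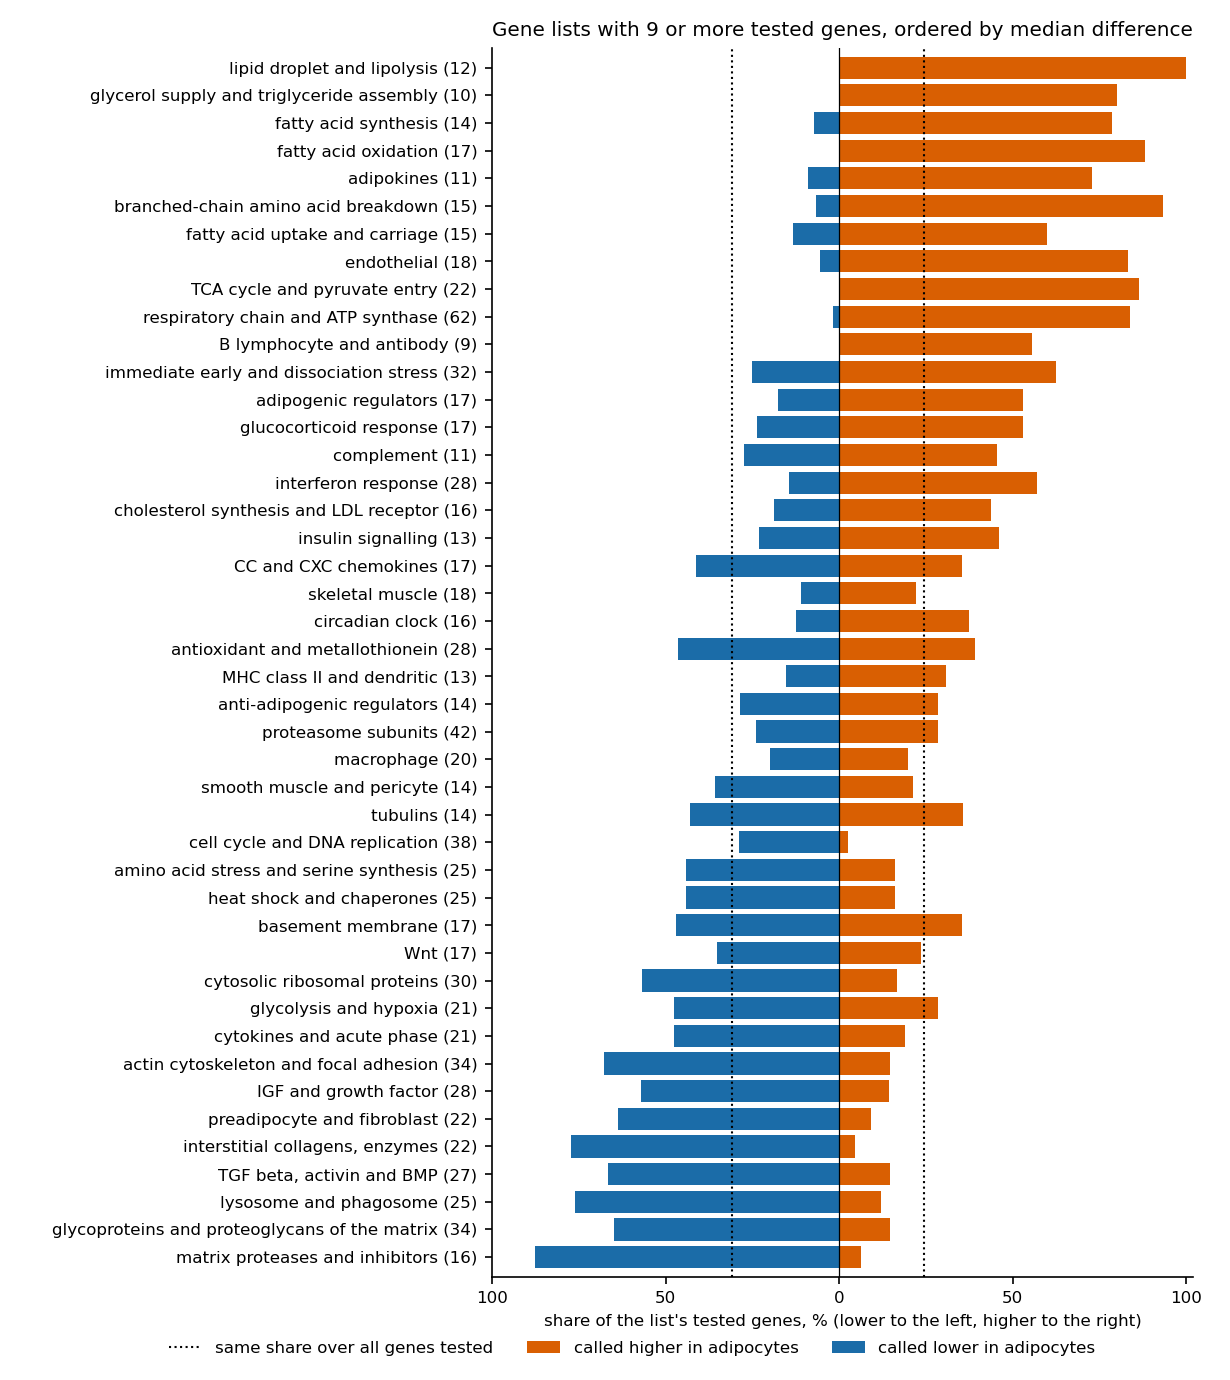
Share of each gene list called higher (orange, to the right) or lower (blue, to the left) in adipocytes, for lists with 9 or more tested genes, ordered by median log2 difference, with the number tested in brackets. Dotted lines mark the shares over all genes, 24.5% higher and 30.7% lower. Lipid and mitochondrial lists lie at the top and matrix, protease and lysosome lists at the bottom.

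The genes of preadipocytes and fibroblasts were lower in adipocytes, with exceptions. Of 22 tested genes, 14 were lower and 2 higher (median -1.15). The platelet-derived growth factor receptor alpha (Pdgfra), which marks fat cell progenitors, read 583, 218 and 1062 in adipocytes and 18081, 17114 and 17367 in stromo-vascular cells, a 31.2-fold difference. Thy1, a surface antigen of fibroblasts, read 1342, 379 and 937 against 36401, 36647 and 34611, or 43.4-fold. The adipocyte values of both varied severalfold among the 3 arrays, in a range well below the stromo-vascular values. The beta receptor Pdgfrb differed by -3.23, the hyaluronan receptor Cd44 by -3.82 and follistatin-like 1 (Fstl1) by -2.65. Cd34, a sialomucin of progenitors and of endothelium, was 1 of the 2 higher genes, with 1211, 928 and 1235 in adipocytes against 397, 485 and 469. It was not the largest exception, since differences in the list reached 3.03.

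Extracellular matrix genes made up much of the stromo-vascular side. Of 22 tested collagens and their modifying enzymes, 17 were lower in adipocytes and 1 higher (median -1.21). Of 34 matrix glycoproteins and proteoglycans, 22 were lower and 5 higher (median -1.6). Of 16 matrix proteases and inhibitors, 14 were lower and 1 higher (median -2.72), against 30.7% lower over all genes. The type I collagen chain Col1a1 read 21116, 18044 and 22304 in adipocytes and 93448, 92056 and 104464 in stromo-vascular cells, a 4.72-fold difference. Its partner Col1a2 read 15467, 11633 and 17084 against 91051, 90953 and 98843, or 6.42-fold. Each of these 2 genes had another, dimmer probe set with a difference of the opposite sign, so the values are those of the brightest probe set. The fractions did not overlap, and the adipocyte arrays kept a clear collagen signal. The enzymes that cross-link and process collagen differed more: lysyl oxidase (Lox) read 632, 1233 and 1349 against 49486, 47793 and 49234 (46.1-fold), and the prolyl hydroxylase P4ha2 and the procollagen C-proteinase Bmp1 differed by -3.78 and -3.88.

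Among the glycoproteins, thrombospondin 2 (Thbs2) read 114, 325 and 139 in adipocytes and 32108, 30990.1 and 26877 in stromo-vascular cells, a 139-fold difference. Fibulin 2 (Fbln2), a component of elastic fibres, gave 1929, 1425 and 1104 against 83783, 79407 and 87229, or 56.1-fold. Tenascin C (Tnc), a matrix protein of wounds and remodelling tissue, differed by -5.41, biglycan (Bgn) by -4.17, periostin (Postn) by -2.55 and fibronectin (Fn1) by -1.94. Basement membrane genes were divided, with 8 of 17 lower and 6 higher in adipocytes: nidogen 2 (Nid2) was lower (log2 -3.31), while Col15a1, a collagen of the zone beneath basement membranes, read 9425, 12835 and 11107 in adipocytes against 1675, 1122 and 1412. Basement membrane surrounds each adipocyte and each capillary.

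Among the proteases, stromelysin 1 (Mmp3) read 632, 420.2 and 815 in adipocytes and 64016, 71737 and 68464 in stromo-vascular cells, a 106-fold difference (log2 -6.73, SE 0.23, adjusted p = 7.89e-12, limma). The protease inhibitor Timp1 read 2781, 2409 and 2115 against 66839, 64404 and 79124, or 28.4-fold, so an enzyme and an inhibitor of its class were both lower. The membrane protease Mmp14 differed by -3.29, cathepsin K (Ctsk) by -3.94, the plasminogen activator inhibitor Serpinb2 by -5.14 and pigment epithelium-derived factor (Serpinf1) by -3.87, with a dimmer probe set of Serpinf1 of opposite sign. Timp3 was the exception, with 3580.4, 6284 and 4894 in adipocytes against 1751, 1977 and 2230.1.

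Promoter windows are shown for Adipoq and Mmp3, which had large but not the largest differences and were chosen after their values were seen, so that the letters before the start sites of an adipocyte and a stromal gene can be seen. They come from RefSeq on build GRCm38.p6, run from 250 bases before to 50 after the start, and are written 5' to 3' on the gene's strand, with matches to any of the 9 motifs searched in capitals. The Adipoq window is chr16:23146286-23146585 and the Mmp3 window chr9:7445572-7445871, both on the + strand.
Adipoq: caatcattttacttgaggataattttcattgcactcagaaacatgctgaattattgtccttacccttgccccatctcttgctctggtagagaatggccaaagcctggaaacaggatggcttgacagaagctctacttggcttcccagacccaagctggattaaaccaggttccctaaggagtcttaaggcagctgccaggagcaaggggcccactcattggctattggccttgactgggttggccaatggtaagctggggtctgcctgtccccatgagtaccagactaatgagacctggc
Mmp3: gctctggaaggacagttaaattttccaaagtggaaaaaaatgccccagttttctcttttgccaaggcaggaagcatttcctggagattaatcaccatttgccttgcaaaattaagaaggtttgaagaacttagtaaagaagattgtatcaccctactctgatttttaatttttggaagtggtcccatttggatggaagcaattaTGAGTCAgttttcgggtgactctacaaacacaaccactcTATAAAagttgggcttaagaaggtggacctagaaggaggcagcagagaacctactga
The Mmp3 window held TATAAA (the letters of the TATA box), beginning 7 bases before the start. It also held TGACTCA (the site of AP-1, the Fos and Jun family) on the other strand, beginning 46 bases before the start. Whether either match works at its position was not tested. The Adipoq window held no match. The other motifs searched, on both strands, were TTGCGCAA (C/EBP), GGGACTTTC (kappa B), TTTCGCGC (E2F), ATCACCCCA (sterol element), AGGTCAAAG (part of a direct repeat), CACGTG (E box) and TTATGNAA (D box). Of all 27025 windows of this length 14.2% held TATAAA and 5.17% held TGACTCA, so neither is rare. A share over the called genes is not given, because only 78.3% of the genes called at least 2-fold higher and 79.9% of those called at least 2-fold lower had a window.

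Genes of the actin cytoskeleton and focal adhesions were mostly lower in adipocytes, 23 of 34 tested, with 5 higher (median -1.0). Nonmuscle myosin (Myh9) read 6837, 4943 and 3799 in adipocytes and 46762, 40809.9 and 40460.4 in stromo-vascular cells. Tropomyosin 1 (Tpm1), which winds along actin filaments, read 1899.6, 1654 and 1528 against 16593, 16552 and 17421, a 9.78-fold difference, and calponin 2 (Cnn2) differed by -4.04. A pair of contractile genes shared by smooth muscle and spread fibroblasts were lower too. Smooth muscle actin (Acta2) read 1604, 1863 and 882 against 14373, 14351 and 15422 and transgelin (Tagln) 1658, 909 and 804 against 15532, 15851 and 16265. The pericyte gene Rgs5 was higher in adipocytes, with 1015, 642 and 533 against 214, 172 and 375 (log2 1.4, adjusted p = 0.0154, limma). Of the 14 tested genes of smooth muscle and pericytes 3 were higher and 5 lower (21.4% and 35.7%), near the shares over all genes. The tubulins were also divided, with Tuba1a at 228180.0, 146825 and 145174 in adipocytes and 16012, 17416 and 20465 in stromo-vascular cells and Tubb5 lower in adipocytes (log2 -0.57).

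Growth factor pathways other than Wnt lay mostly on the stromo-vascular side. Of 27 tested genes of TGF beta, activin and BMP signalling, 18 were lower in adipocytes and 4 higher (median -1.28). These shares are 66.7% and 14.8%, against 30.7% lower and 24.5% higher over all genes. Activin A (Inhba), a secreted dimer of the TGF beta family that is known to inhibit adipogenesis, read 459, 528 and 336 in adipocytes and 7741, 7499 and 6384 in stromo-vascular cells, or 15.2-fold. TGF beta 1 (Tgfb1) read 137, 177 and 135 against 1549.8, 1419 and 1509 and the repressor Tgif1 differed by -3.23. Of 28 genes of the insulin-like and other growth factors, 16 were lower and 4 higher (57.1% and 14.3%, median -1.08). The lymphatic growth factors Vegfd and Vegfc differed by -4.37 and -4.25, the epidermal growth factor receptor (Egfr) by -3.36, and Igfbp3, which binds insulin-like growth factors, by -3.58. The growth hormone receptor (Ghr) stood apart, with 18797, 19612 and 20960.0 in adipocytes against 2381, 2284 and 1943. The Wnt list had 6 of 17 lower and 4 higher (35.3% and 23.5%), near the shares over all genes. Some of its secreted inhibitors were among the lower ones. Sfrp1 read 55.7, 351 and 203 in adipocytes and 11425, 10094 and 9849.6 in stromo-vascular cells, and Dkk3 and Sfrp2 differed by -3.38 and -2.09.

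Immediate early and dissociation stress genes were mostly higher with the adipocytes, 20 of 32 tested, with 8 lower (median 1.19). These shares are 62.5% and 25%, against 24.5% higher and 30.7% lower over all genes. Fosb, an AP-1 subunit induced within minutes of a stimulus, read 41874, 39159 and 33070.1 in adipocytes and 759, 804 and 938 in stromo-vascular cells, a 43.5-fold difference. Fos read 38359.8, 50785 and 40401 against 1755, 1869 and 2289, or 21.5-fold, and the RNA-destabilising protein gene Zfp36 38309.6, 38984 and 43221 against 2951, 2616 and 3672, or 13-fold. Nfkbia, the inhibitor of NF-kappa B, differed by 3.0, Gadd45b by 2.97, Atf3 by 2.72 and the heat shock gene Dnajb1 by 2.49. Fosl1, another AP-1 subunit, was lower in adipocytes, with 472, 373 and 274 against 3548, 3502 and 3063. Time since digestion differed between the fractions, and its part in these values cannot be told apart from that of the fraction.

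Glycolytic and hypoxia genes, 10 of 21 lower and 6 higher in adipocytes (median -0.64), did not all go 1 way. Adrenomedullin (Adm), a vasodilator peptide induced by low oxygen, read 6724, 4834 and 5733 in adipocytes and 57059, 55956 and 62859 in stromo-vascular cells, or 10.2-fold. Hif1a, the oxygen-sensitive transcription factor, read 12151, 16743 and 10454 against 51285, 51449.9 and 53122, and phosphoglycerate kinase (Pgk1) differed by -1.94. Hexokinase 2 (Hk2), the isoform of insulin-sensitive tissue, was higher in adipocytes by 1.56. Antioxidant genes were split, 13 of 28 lower and 11 higher, and 8 lower with arrays centred on ribosomal protein genes. Haem oxygenase 1 (Hmox1) read 7872, 5829 and 6103 against 67420.4, 63396 and 76251, the glutathione enzyme subunit Gclm differed by -2.95 and sulfiredoxin (Srxn1) by -2.45, all lower in adipocytes. Of 25 heat shock and chaperone genes 11 were lower and 4 higher, and the lower ones included the protein folding enzymes of the endoplasmic reticulum Pdia3 (-3.69), Pdia6 (-2.52) and Hsp90b1 (-1.51).

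Lysosomal genes were lower in adipocytes, 19 of 25 tested, with 3 higher (median -1.41). Cathepsin H (Ctsh) read 973, 730.3 and 800.2 in adipocytes and 19979.6, 27698 and 32104 in stromo-vascular cells, or 30.1-fold. Legumain (Lgmn), a protease of the same compartment, differed by -3.34, acid ceramidase (Asah1) by -2.48 and cathepsin A (Ctsa) by -2.42. Cytosolic ribosomal protein genes were lower in adipocytes in 17 of 30, with 5 higher (median -0.57). Cell cycle genes showed 11 of 38 lower and 1 higher (28.9% lower, against 30.7% over all genes). Both ribonucleotide reductase subunits were lower, Rrm1 with a log2 difference of -3.34 and Rrm2 with -2.56, whereas the proliferation antigen gene Mki67 was not called, with 514, 508 and 395 against 389.6, 471 and 374 (log2 0.18, adjusted p = 0.798, limma). The 1 cell cycle gene that was higher in adipocytes was the inhibitor Cdkn2c, with 8036, 8388 and 9052 against 1278, 1144 and 993.

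Vessel genes were higher with the adipocytes than with the cultured stromo-vascular cells. Of 18 tested endothelial genes, 15 were higher in adipocytes and 1 lower (median 1.82), and the summed signal of the list was 32381 to 55217 in the adipocyte arrays and 14216 to 16223 in the stromo-vascular arrays. VE-cadherin (Cdh5), the junction protein of endothelium, read 6207, 6563 and 3781 against 355, 316 and 467, a 13-fold difference. The phosphatase Ptprb read 2534, 1966 and 1539 against 24.1, 21.1 and 36.1 and nitric oxide synthase 3 (Nos3) 1655, 1108 and 1582 against 58.3, 26.7 and 25.8, with stromo-vascular values at or below the pseudocount in most arrays. The tight junction gene Cldn5 differed by 4.29, the receptors Tie1 by 3.33, Flt1 by 2.38, Kdr by 1.71 and Tek by 0.95, and Pecam1 by 1.56 (adjusted p = 0.0125, limma), a call that was lost without stromo-vascular replicate 2 (1.22, adjusted p = 0.0645). Adipocyte replicate 1 had the highest sum of endothelial markers and replicate 3 the lowest, and without replicate 1 the count of higher genes was 13.

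Part of the erythroid and B cell genes were also higher with the adipocytes. The summed signal of the erythroid list was 23472 to 51492 in adipocytes and 2293 to 2605 in stromo-vascular cells, with 3 of 7 tested genes higher and 0 lower (42.9% higher, against 24.5% over all genes). Alpha globin (Hba-a1) read 44182, 24637 and 16985 in adipocytes and 428, 509 and 732 in stromo-vascular cells, and the beta globin gene Hbb-b2 4336, 4472 and 3352 against 162, 55.1 and 254. Hba-a1 alone made up most of the adipocyte sums. Erythrocytes were lysed in the stromo-vascular preparation only, so lysis and fraction cannot be told apart here. Alas2, the haem synthesis enzyme of erythroid precursors, was not called (0.94, adjusted p = 0.0905, limma). The immunoglobulin heavy chain gene Ighm read 14525, 12437 and 11813 against 535, 531 and 478, a 23.3-fold difference, with 1 of its dimmer probe sets of opposite sign. The summed signal of the B cell list was 16111 to 21357 in adipocytes, most of it from Ighm, and 2844 to 3719 in stromo-vascular cells. Of 9 tested B cell genes, 5 were higher (55.6%) and 0 lower. Without adipocyte replicate 1 the count was 2. The T cell receptor genes Cd3d, Cd3e and Cd3g were below the filter.

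Macrophage genes did not share a direction. Of 20 tested, 4 were higher in adipocytes and 4 lower (20% each), close to or below the shares of 24.5% and 30.7% over all genes. The chains of complement C1q, a product of tissue macrophages, were higher with adipocytes: C1qa read 2319, 1677 and 2280.4 against 81.3, 95.1 and 100.4, C1qb 2393, 1539.7 and 2052 against 16.7, 32.7 and 27.5 and C1qc 5069, 3266 and 4565 against 210.0, 479 and 419.5. The macrophage colony-stimulating factor receptor (Csf1r) ran the other way, with 1786, 1372 and 1999 in adipocytes and 6562, 6489 and 6225 in stromo-vascular cells, as did the lysosomal marker Cd68 (-1.99). The defining marker Adgre1 (F4/80) was not called, with 170.3, 140.5 and 371 against 440.4, 110.1 and 366 (log2 -0.3, adjusted p = 0.617, limma), nor was the mannose receptor Mrc1 (0.62, adjusted p = 0.0992, limma). The summed signal of the macrophage list was 27811 to 38986 in adipocytes and 26089 to 27329.5 in stromo-vascular cells. The antigen-presenting genes H2-Aa, H2-Eb1 and Cd74 were higher in adipocytes by 4.2, 3.2 and 3.51, with adipocyte replicate 1 highest in each, while cathepsin S (Ctss), which processes antigen, was lower (log2 -2.02). Over the whole list of MHC class II and dendritic genes 4 of 13 were higher and 2 lower.

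**Figure D4:**
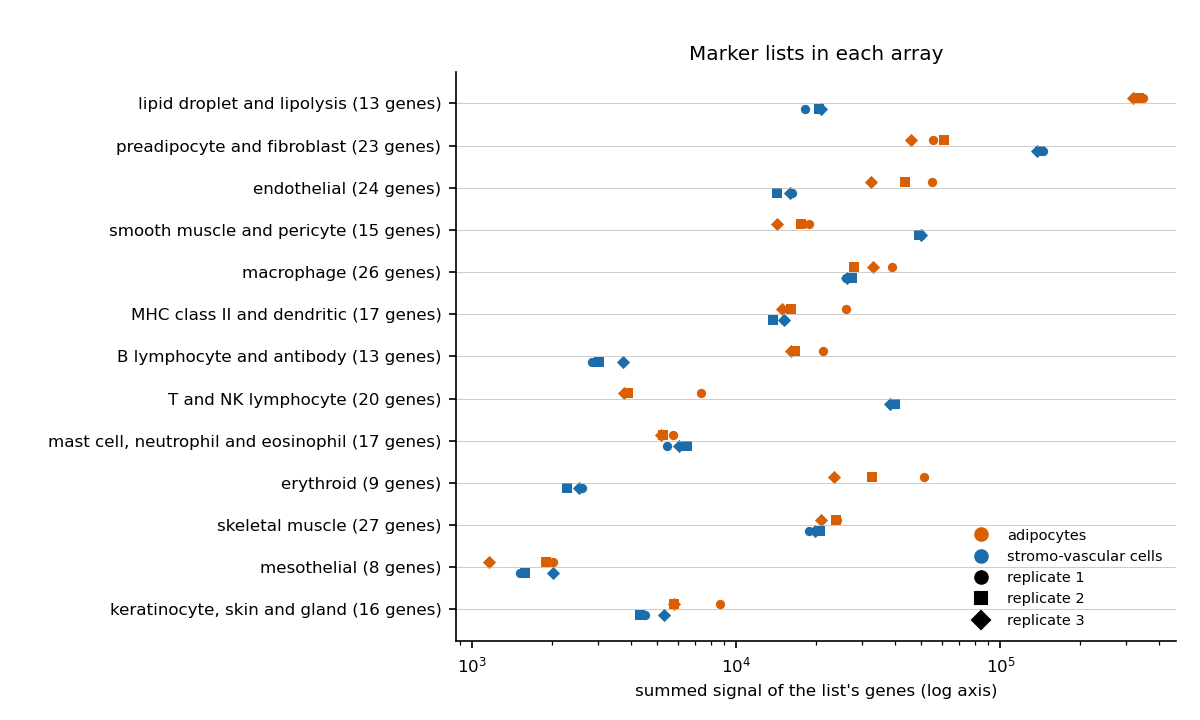
Summed signal (log axis) of the genes of 13 marker lists in each of the 6 arrays, with adipocyte arrays in orange, stromo-vascular arrays in blue and marker shape for the replicate number. Endothelial, B cell and erythroid sums were higher in all 3 adipocyte arrays, and preadipocyte and smooth muscle sums were lower. Sums of linear signal follow their brightest genes. In the adipocyte arrays Ighm made up most of the B cell sum and Hba-a1 most of the erythroid sum. In the stromo-vascular arrays Acta2 and Tagln made up most of the smooth muscle sum. The T and NK list includes Thy1, which is also a fibroblast gene.

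Chemokines and cytokines were divided between the fractions. Cxcl9 and Cxcl10, attractants of T cells induced by interferon, read 4215, 4257 and 3059 and 3449, 4038 and 4229.8 in adipocytes against 26.3, 16.5 and 21.3 and 87.5, 25.6 and 110.3 in stromo-vascular cells. Cxcl1, an attractant of neutrophils, read 68126, 62414 and 68610.0 against 2602, 2509 and 2998, or 24.3-fold. For these 3 chemokines each adipocyte array was above each stromo-vascular array, and the stromo-vascular signal of Cxcl9 was below the pseudocount. The stromal chemokine Cxcl12 was the reverse, with 298, 386 and 270.5 in adipocytes and 34117, 36836 and 30612 in stromo-vascular cells, a 95.1-fold difference. Cxcl14 and the monocyte attractant Ccl8 were also lower in adipocytes (log2 -5.05 and -3.87). In all, 6 of 17 tested chemokines were higher in adipocytes and 7 lower (35.3% and 41.2%, against 24.5% and 30.7% over all genes). Of 21 cytokine and acute phase genes 4 were higher and 10 lower (19.0% and 47.6%, median -0.93). Serum amyloid A3 (Saa3) read 8609, 3391 and 4325 in adipocytes and 98386, 100684 and 109600.0 in stromo-vascular cells, the growth factor Csf1 differed by -4.36 and lipocalin 2 (Lcn2) by -5.08 on its brighter probe set, whereas orosomucoid (Orm1), an acute phase plasma protein, read 10922, 15765 and 17058 against 48.6, 20.9 and 108. Of 28 interferon response genes 16 were higher in adipocytes and 4 lower (57.1% and 14.3%, median 0.59). The transcription factor Irf1 led them, with 16117, 17390.3 and 19902 against 1286, 1110.0 and 1164.

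The same 2 fractions of intraabdominal fat, on 6 other arrays, gave a comparison that shares no array with this one. In that depot 54% of genes were called. Of the 3553 genes called in subcutaneous fat, 2703 were called in the same direction in intraabdominal fat, which is 76.1% of the subcutaneous and 77.8% of the intraabdominal calls. Of the rest, 799 were not called there and 51 were called in the opposite direction. The log2 differences of the 2 depots correlated with r of 0.866 across 6436 genes, which are not independent and share arrays within each depot. The difference between the depots was itself tested as an interaction, and 733 probe sets were called (8.43%). By gene 586 were called (9.11%), 270 with a higher value in subcutaneous fat (4.2%) and 316 with a lower one (4.91%). Only these differences are given as differing between depots.

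**Figure D5:**
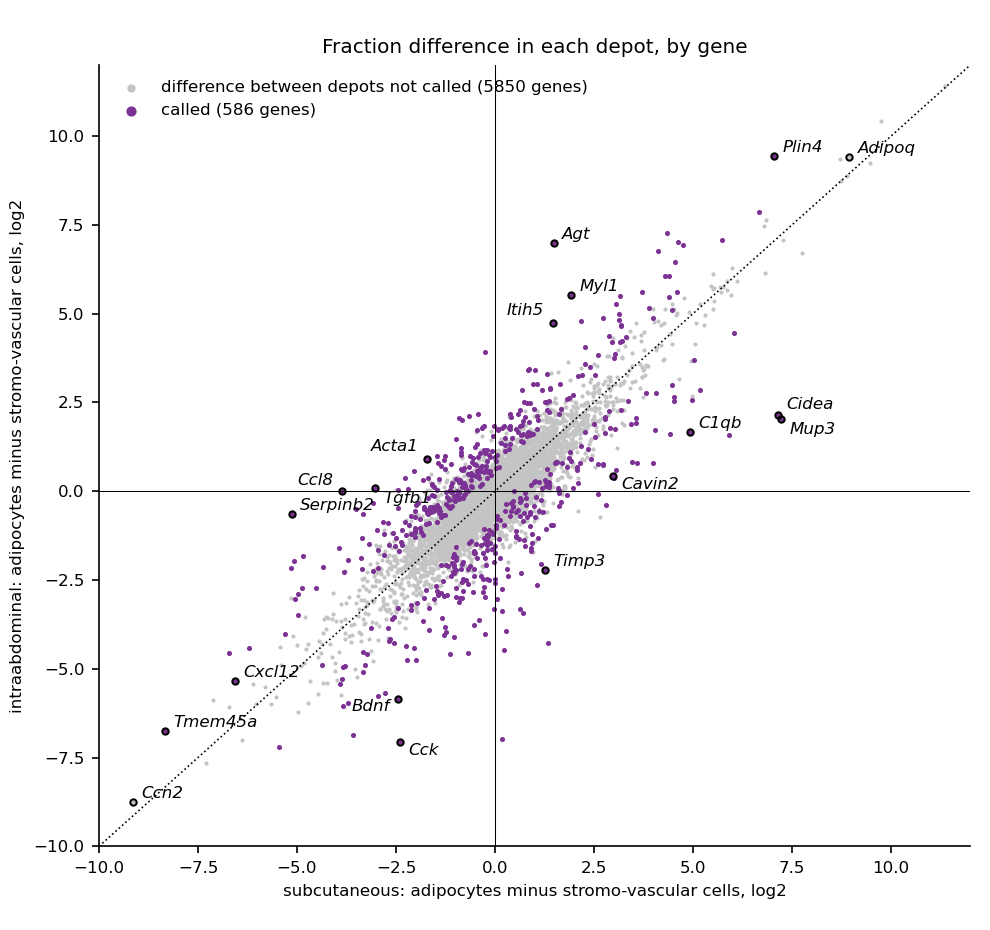
Difference between adipocytes and stromo-vascular cells (log2) in subcutaneous fat on the horizontal axis and in intraabdominal fat on the vertical axis, 1 point per gene, with genes called in the test of the difference between the depots in purple. Most genes lie near the dotted line of equal difference (r = 0.866), and Mup3, Cidea, Agt and Cck lie far from it.

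Among genes whose fraction difference was more positive in subcutaneous fat, the largest gap was that of Mup3, a major urinary protein gene, with 16175, 17422 and 23379 in adipocytes and 103, 107 and 52.4 in stromo-vascular cells. Its log2 difference was 7.23 here and 2.03 in intraabdominal fat (interaction 5.2, SE 0.47, adjusted p = 7.15e-06, limma). Genes of this family are near-identical in sequence, so Mup3 and Mup5 may share signal. Cidea differed by 7.14 against 2.14 (interaction adjusted p = 4.4e-05, limma) and Ucp1 by 3.0 against 0.38 (adjusted p = 0.00552, limma), and Cox7a1 and Cox8b had interactions of 2.78 and 2.3. The 3 C1q chains differed less in intraabdominal fat, with interactions of 3.2, 3.28 and 2.62. Timp3 changed direction: it was higher in adipocytes here (1.26) and lower there (-2.23), with an adjusted p of 1.85e-05 for the interaction by limma. Cavin2 and Fabp5, a fatty acid-binding protein also found in macrophages and skin, were higher in adipocytes here by 2.98 and 1.96, against 0.42 and 0.08 there (interaction adjusted p = 1.02e-06 and 1.64e-05, limma).

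Other genes differed more strongly on the side of stromo-vascular cells in subcutaneous fat. Ccl8 was lower in adipocytes by -3.87 here, with a difference of 0.01 in intraabdominal fat (interaction -3.88, adjusted p = 3.95e-05, limma). Serpinb2 gave -5.14 against -0.64, Tgfb1 -3.02 against 0.08, Lcn2 -5.08 against -1.96 and Fosl1 -3.07 against -0.34. Adm and Hif1a, of the hypoxia list, gave -3.35 against -1.32 and -2.01 against -0.57. In Agt the adipocyte excess was smaller here, 1.48 against 6.98, and the same held for Plin4 (7.04 against 9.43). The type I collagen chains were less unequal in subcutaneous fat: Col1a1 gave -2.24 against -4.35 and Col1a2 -2.68 against -4.21, both called as interactions, with adjusted p of 3.91e-06 and 0.000216 by limma. In the whole list of collagens and their enzymes 9 interactions were called of 22 tested, 5 positive and 4 negative, against 9.11% called over all genes. Cck, the cholecystokinin gene, and Bdnf, a neurotrophin gene, were also closer to 0 here, with -2.41 against -7.07 and -2.44 against -5.85.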

How the data were processed

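Expression was measured on Affymetrix mouse arrays of 12488 probe sets, with 15 µg of RNA per array. What the authors deposited is a linear intensity for each probe set on each array, from MAS5 per the submitters' processing notes. Its version is not given in the sources used here, and detection calls were not used. The 2% trimmed means of the arrays agreed within a ratio of 1.00017, which shows scaling to 1 target, and no pair of arrays was identical. The number of arrays limits the precision, and the median SE of a log2 difference was 0.241.

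The 66 control probe sets were left out. Of the remaining 12422, 1 symbol was listed by the platform annotation for 10833, several for 396 and none for 1193. The annotation can be old; 10817 probe sets matched current records by Entrez number and 0 symbols changed. In all, 8251 genes were named, each represented by the probe set with the highest mean. Signals were analysed as log2(signal + 40.2), with the 10th percentile of all values as pseudocount. The dimmest 30% of probe sets, by mean over the arrays, were not tested. Group means of all 4 groups were fitted to 12 arrays with limma 3.58.1 in R 4.3.3 (lmFit, contrasts.fit, eBayes with intensity trend), with a variance common to the groups and 8 residual degrees of freedom. P-values were adjusted by the method of Benjamini and Hochberg over the 8695 probe sets of a contrast. The interaction was the subcutaneous minus the intraabdominal fraction difference. The procedure was tested on simulated data.

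The arrays compared, the 53 gene lists and the rule for naming genes were chosen with earlier results of these data known. The rule took the 15 genes with the largest difference in each direction among called genes without overlap, up to 6 genes of each list with the smallest adjusted p, key genes of the tissue and defining markers, and the genes among these with a called interaction together with the 8 largest interactions in each direction. The text takes part of them. Lists are described by counts and medians, with no test of the list. Promoter windows came from RefSeq (GRCm38.p6), and 5156 of 6436 genes (80.11%) had one. Alternatives covered the pseudocount, the filter, scaling, arrays fitted, weights, the trend, the probe set rule and a block for the replicate number. Each of the 6 subcutaneous arrays was also left out in turn, but no intraabdominal array. Same-numbered arrays of the 2 fractions did not deviate together (r of -0.05 to 0.03 in the 3 subcutaneous pairs and -0.09 to 0.03 in the 3 intraabdominal pairs), so the numbers were not used as pairs.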

Additional observations from a re-analysis of the deposited data

Results flagged for a closer look

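The results below were marked because the difference between adipocytes and stromo-vascular cells itself differed between subcutaneous and intraabdominal fat, tested as an interaction by limma. It was called for 75 genes named in the text, with adjusted p of 4.23e-09 to 0.0422. Each value is the subcutaneous minus the intraabdominal log2 difference, so a positive value means a difference further to the adipocyte side in subcutaneous fat. It was positive for 33 and negative for 42 of them. Groups of 3 arrays are too small for a test of single outlying arrays, and no cause of these differences was tested. The call was lost under at least 1 alternative way of processing for Bcat2, Cavin1, Cd44, Cpxm1, Csf1r, Ctsa, Hp, Ighm, Me1, Mgll, Nfkbia, Pdk4, Psmd7, Rrm1, Rrm2, Slc1a5, Slc2a1, Tkt and Vegfd, whose values below are less firm than the others. None of the alternatives left out an intraabdominal array.

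Among fat cell genes the value was 5.01 for Cidea, 2.61 for Ucp1, 2.78 for Cox7a1, 2.3 for Cox8b and 1.98 for Pdk4. It was 2.56 for Cavin2, 1.88 for Fabp5, 1.6 for Cd36, 1.3 for Acaa2, 0.89 for Tkt, 0.83 for Me1 and 0.62 for Cavin1. In the other direction lay Agt with -5.5, Plin4 with -2.39, Rbp4 with -2.15, Lpl with -1.08 and Ghr with -1.05. Smaller negative values belonged to Nr1h3 (-1.05), Bcat2 (-1.04), Scd1 (-0.89), Slc1a5 (-0.83), Hp (-0.66) and Mgll (-0.64). Over whole lists, 7 called values of the 17 tested fatty acid oxidation genes were positive and 1 negative. Those of the 14 genes of fatty acid synthesis were 3 and 3, and those of the 11 adipokines 1 and 5. Over all genes 4.2% were called positive and 4.91% negative. The major urinary protein genes Mup3 and Mup5 had 5.2 and 4.33.

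Matrix and stromal genes went both ways, with 5 positive and 4 negative called values among the 22 collagens and their enzymes, against 9.11% called over all genes. Positive values belonged to Timp3 (3.49), Col1a1 (2.11), Col1a2 (1.53), Fstl1 (1.51), Serpinf1 (1.42) and Postn (0.98). The contractile genes Tagln and Tpm1 had 2.22 and 1.59. Negative values belonged to Serpinb2 (-4.49), Ctsk (-2.34), Cyp1b1 (-2.16), Cpxm1 (-1.79), Tmem45a (-1.57), Cd44 (-1.54), Col15a1 (-1.26) and Ctsa (-0.75). Of growth factor genes Cck had 4.66, Bdnf 3.41, Igfbp3 3.28 and Vegfd 0.52, whereas Tgfb1 had -3.1 and Egfr -1.17. The ribonucleotide reductase genes Rrm1 and Rrm2 had 1.74 and 1.72.

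The C1q chains C1qa, C1qb and C1qc had 3.2, 3.28 and 2.62, and the complement regulator Cd59a 2.43. For the named chemokines with a called interaction the values were negative, with -3.88 for Ccl8, -2.01 for Cxcl14, -1.23 for Cxcl12 and -1.01 for Cxcl1. So were those of Lcn2 (-3.11), Saa3 (-2.21), Ighm (-1.92), Csf1r (-0.85) and the vessel genes Cdh5 (-1.9) and Cldn5 (-1.77). Of the stress and regulatory genes Fos had 2.82, in contrast to Fosl1 with -2.73, Zbtb16 with -2.4 and Nfkbia with -0.76. The Fos signal scattered widely in intraabdominal adipocytes, with a mean of 28335.3 and an SD of 28023.5, so its value is less firm as well. The named genes of the glycolysis and hypoxia list with a called value had negative ones, Slc2a1 (-2.08), Adm (-2.03) and Hif1a (-1.44). Of the 21 tested genes of that list 8 were called, 5 of them positive and 3 negative. Of the 28 antioxidant genes 14 were called, against 9.11% over all genes, and 14 of these were negative, among them Srxn1 (-2.49), Hmox1 (-1.52) and Gclm (-1.28). Sqle had -1.11 and Psmd7 -1.08.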

How the results depend on the processing

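The count of 4595 called probe sets stayed within 1.5 times under each of 18 alternatives. It was 4546 and 4689 with the pseudocount at the 5th and 25th percentile, 4776 with no filter, 3888 with the lowest 50% of signal left out, 4561 with arrays centred on their median, 4665 after quantile normalization and 4380 with arrays centred on ribosomal protein genes. It was 4385 with the 6 subcutaneous arrays only, 4527 with array weights, 4553 without the intensity trend and 4580 with robust moderation. Leaving out 1 subcutaneous array gave 3969 to 4444 calls, 1722 to 2011 of them higher and 2247 to 2481 lower. The difference between depots then had 536 to 788 calls, against 733. The replicate numbers did not pair the arrays. With the replicate number as a block, 4506 probe sets were called, and 645 for the difference between depots. A gene removed by the stricter filter had no value there and was not counted as changed. Of 194 genes named by rule and given in the text, 192 kept their call and direction under every alternative in which they had a value. The exceptions were Pecam1, given above, and the uncalled Adgre1, which ranged from -0.82 to 0.016 when 1 array was left out, with the sign turned without stromo-vascular replicate 1. No intraabdominal array was left out, so the differences between depots were not checked against the loss of such an array. Of the 75 differences between depots 56 kept their call and direction under every alternative in which they had a value. The rest, named among the differences between depots above, lost the call, but not the direction, under at least 1 alternative; the cause was not tested. The arrays carry no detection calls here, so a signal at or below the pseudocount has no settled level, and folds of such genes depend on it.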

Other observations

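Counts for several smaller lists are given here, against 24.5% of all genes called higher and 30.7% called lower. Of 11 tested complement genes, 5 were higher in adipocytes and 3 lower, and without stromo-vascular replicate 1 the higher count was 3. The C1 inhibitor Serping1 read 2311, 1658 and 3019 in adipocytes and 58262, 61028 and 69536 in stromo-vascular cells (log2 -4.77), whereas Cd59a, which shields cells from the membrane attack complex, read 18545, 16553 and 16138 against 437, 623 and 454 (log2 4.99). Of 16 tested clock genes, 6 were higher and 2 lower (37.5% and 12.5%) and 8 were not called. The list was thus not called more often than all genes (55.2%). The clock output factor Tef read 5383, 6885 and 5298 in adipocytes and 394, 338 and 1374 in stromo-vascular cells, the clock repressor Nr1d1 differed by 1.71 and Per2 by 1.72, while Bhlhe40 was lower in adipocytes (log2 -1.09). Of 17 genes of the glucocorticoid response, 9 were higher and 4 lower (median 0.68). Zbtb16, a zinc finger factor induced by glucocorticoids, read 5757, 17131 and 13245 against 535, 398 and 314, with adipocyte replicate 1 lowest of its group.

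Of 16 tested genes of cholesterol synthesis, 7 were higher in adipocytes and 3 lower (median 0.5). Hmgcs1, at the start of the pathway, read 4135, 5528 and 6170.0 in adipocytes and 1976, 2241 and 2175 in stromo-vascular cells, and Nsdhl, near its end, differed by 1.23, whereas squalene epoxidase (Sqle) read 1059, 783 and 1115 against 3688, 3253 and 2792 and was lower in adipocytes. In the list of amino acid stress and serine synthesis 11 of 25 genes were lower and 4 higher (median -0.3). The mitochondrial folate enzyme Mthfd2 read 671, 1316 and 1125 in adipocytes and 6770.0, 5803 and 6544 in stromo-vascular cells, and the asparaginyl tRNA synthetase Nars differed by -2.28, but the glutamine transporter Slc1a5 was higher in adipocytes (20164, 19212 and 18231 against 2107, 2114 and 2723). Of 42 proteasome subunits 12 were higher and 10 lower (28.6% and 23.8%), near the shares over all genes of 24.5% and 30.7%. Psmb10, a subunit of the inducible proteasome, was higher in adipocytes by 1.2 and its activator Psme1 by 0.97, while the regulatory subunits Psmd7 and Psmd8 were lower (-1.11 and -1.22).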
